A study of Mus musculus with 2 samples.

Results

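The regions described here are the 19 mouse autosomes, read through the array probes that lie on them. A probe was kept when the array's annotation placed it on chromosome 1 to 19 and its signal was well above background on both arrays. This held for 16709 of the 38822 autosomal probes (43.0%), out of 41158 gene probes on the array in all, and the kept probes covered 11146 genes or named transcripts. Probes were grouped by chromosome and by 10-Mb bin of their start, to look for broad shifts in RNA level along the genome. The choice of probes did not use the size of the difference, but it was not independent of it. A probe that was near background on 1 array was left out even if it was bright on the other. Of the autosomal probes, 1143 were well above background at passage 5 alone and 1355 at passage 20 alone. Some large differences are lost in this way.

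The arrays held RNA of expandable hepatoblasts (eHBs), C57BL/6 mouse liver cells that were kept in culture as liver progenitors, 1 array at passage 5 and 1 at passage 20. Both cultures were described with the same medium. Its additives were the growth factor EGF, the GSK3 inhibitor CHIR99021, E-616452, which blocks the type I receptor for TGF-beta, and the signalling lipids LPA and S1P. The surface was Matrigel or laminin, and the labels do not say which culture had which. The cultures were from separate experiments, as the labels state, so passage and experiment cannot be told apart, and no difference below has a replicate check. In bulk RNA, fewer cells of a type and less RNA per cell cannot be told apart either.

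Cultured cells can gain or lose whole chromosomes or chromosome arms as they are passaged, and mouse cells are known for this. Where a chromosome is gained in all cells, the RNA of most genes on it tends to rise together by a modest and similar factor, in proportion to the number of copies. A gain in only some of the cells gives a smaller shift. Expression arrays can therefore show a broad dosage shift as a common offset of many neighbouring genes, while single genes change for many other reasons. An expression array does not measure DNA copies, and none were measured here.

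Levels are log2 signals relative to the array's 75th percentile, and a difference is passage 20 minus passage 5. The offset of a chromosome or bin is the median difference of its kept probes minus the median over all kept autosomal probes, which was 0.09 log2. A constant shift between the arrays therefore has no effect on an offset. If RNA followed dosage in full, 3 copies in place of 2 in every cell would give log2(3/2), or 0.58, before the small shift of the autosomal median that such a gain would itself cause. The middle 50% of kept autosomal probes lay between -0.28 and 0.26 around the autosomal median. Over 110 kept probes with repeat spots, the SD of the difference between spots had a median of 0.04 log2 and a 95th percentile of 0.17. This is technical error within the arrays only, and the number of arrays limits the precision. Among 4160 genes with several kept probes, the median SD between a gene's probes was 0.19 log2.

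The sequences below are what the array reads in the regions at the ends of the order of bins: for the leading gene of the 4 highest and the 4 lowest bins with at least 20 kept probes, the first 30 bases of its probe of 60 bases, as the scanner files give it. Capitals mark runs of at least 3 G or C, because the offsets are set against base composition further on. Positions are mm9 coordinates as the files list them, and a probe whose start and end lie further apart than its own length spans a gap in that annotation. Which of these probes lie in coding exons and which in untranslated ends was not analysed here.
Zfp949 (chromosome 9, 88462049 to 88462108, plus strand): agaatctcaacgaCGCtcagaagatgctgt
Mterf1b (chromosome 5, 4196719 to 4196778, plus strand): ctgaaagtctttcaaaaCGGtGGGatctgt
Mdn1 (chromosome 4, 32861886 to 32861945, plus strand): ttGGGCCtGGGGGCagttttacttGGCCag
Cntln (chromosome 4, 84777495 to 84777554, plus strand): ctcatcatccagtttcactttagcagttcc
Igfbp2 (chromosome 1, 72898677 to 72898736, plus strand): catctcttctacaacgagcagcaggagact
Aldh3b2 (chromosome 19, 3980787 to 3981062, plus strand): agttGGCaacaGCGGGatGGGCaggtacca
Aldh1a1 (chromosome 19, 20717764 to 20717823, plus strand): gactagttgtgacttaagctctgtCCCtca
Misp (chromosome 10, 79290730 to 79292170, plus strand): GGGCagaagactaggaaggagatgtggtat
Over their whole length the probes of the 4 genes from the highest bins held 45%, 41.7%, 45% and 40% G+C, in the order shown. Those from the lowest bins held 55%, 55%, 45% and 51.7%.

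For the base composition of the genes' own start regions, promoters are shown for the leading gene with a promoter entry in each of the 2 highest and 2 lowest bins. They are the 250 bases before the start site in RefSeq (GRCm38.p6, a different build from the probe positions above). Capitals mark the GC box, GGGCGG on either strand.
Zfp949 (chromosome 9, 88547770 to 88548019, plus strand): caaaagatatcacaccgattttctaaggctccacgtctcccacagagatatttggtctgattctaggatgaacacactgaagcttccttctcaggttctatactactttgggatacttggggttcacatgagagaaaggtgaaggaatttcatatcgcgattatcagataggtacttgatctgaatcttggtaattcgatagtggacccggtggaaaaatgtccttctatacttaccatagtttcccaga
Mterf1b (chromosome 5, 4192117 to 4192366, plus strand): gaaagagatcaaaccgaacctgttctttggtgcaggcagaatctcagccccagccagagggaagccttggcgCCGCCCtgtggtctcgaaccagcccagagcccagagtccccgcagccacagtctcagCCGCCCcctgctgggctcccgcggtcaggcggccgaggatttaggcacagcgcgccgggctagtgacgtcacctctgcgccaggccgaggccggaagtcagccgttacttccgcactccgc
Igfbp2 (chromosome 1, 72824230 to 72824479, plus strand): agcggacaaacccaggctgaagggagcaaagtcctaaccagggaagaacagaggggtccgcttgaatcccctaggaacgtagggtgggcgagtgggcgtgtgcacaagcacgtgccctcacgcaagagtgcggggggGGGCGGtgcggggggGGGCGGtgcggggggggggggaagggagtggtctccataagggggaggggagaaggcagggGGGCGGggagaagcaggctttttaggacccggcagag
Fkbp2 (chromosome 19, 6980465 to 6980714, minus strand): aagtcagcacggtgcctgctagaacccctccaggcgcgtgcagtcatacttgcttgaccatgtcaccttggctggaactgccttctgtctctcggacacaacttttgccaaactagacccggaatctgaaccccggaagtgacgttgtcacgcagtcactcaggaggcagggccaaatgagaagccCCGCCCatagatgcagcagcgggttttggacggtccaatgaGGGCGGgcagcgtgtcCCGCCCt
The Zfp949 promoter held 41.2% G+C and 0 GC boxes, and that of Mterf1b 66.4% and 2. The promoters of Igfbp2 and Fkbp2 held 67.2% and 58.8% G+C and 3 GC boxes each. Igfbp2 has 2 start sites in the table and Fkbp2 3, and the first listed was used. Among 32851 promoters of the same length, 32.7% held a GC box on either strand, and the median G+C was 52.4%. A CCAAT box (CCAAT, either strand) was found in the Fkbp2 promoter and in 33.8% of all promoters, and an E box (CACGTG) in the Igfbp2 promoter and in 6.02% of all. These matches are descriptions of the letters in these windows.

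No autosome had an offset of 0.2 log2 or more in either direction. The offsets ran from 0.13 for chromosome 4 to -0.13 for chromosome 19, a range of 0.26. The highest offset is a factor of 1.10, or 22.4% of log2(3/2), and the lowest a factor of 0.914. On all 19 autosomes the middle 50% of probes reached to both sides of the autosomal median.

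**Figure D1:**
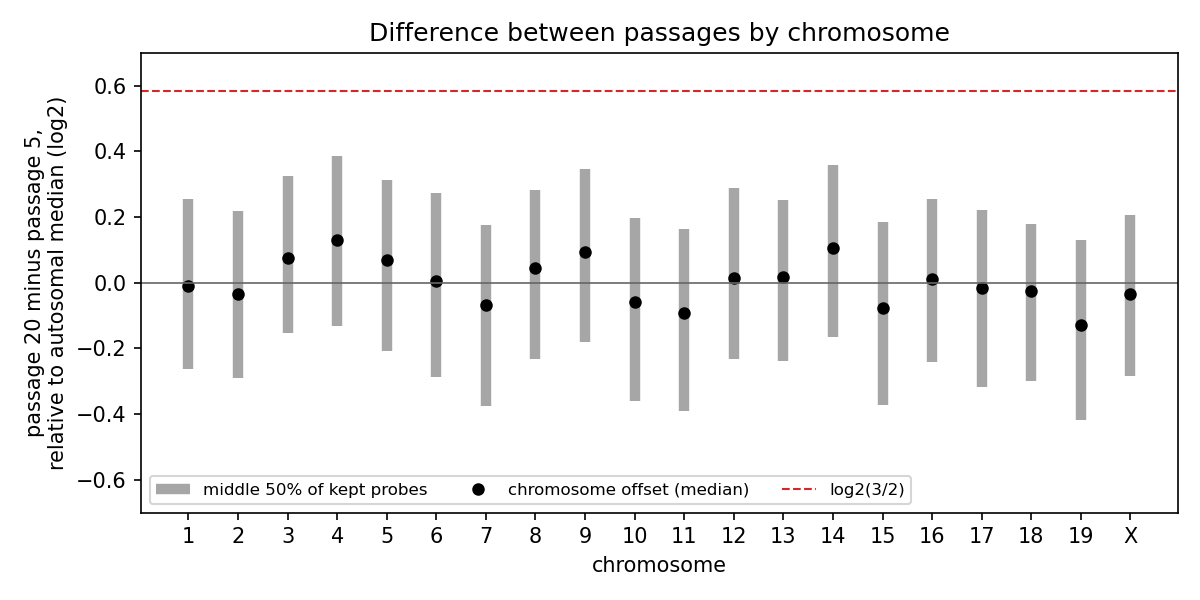
Offset of each chromosome (black point, median of its kept probes) and the middle 50% of its probes (grey bar), as passage 20 minus passage 5 in log2 relative to the autosomal median; the dashed line is log2(3/2). All medians lie between -0.13 and 0.13, well below the dashed line, and every bar crosses 0.

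Above the autosomal median, chromosome 4 (0.13, over 1074 probes) was followed by chromosomes 14 (0.10, 626 probes), 9 (0.09, 1002 probes), 3 (0.07, 851 probes), 5 (0.07, 1144 probes) and 8 (0.04, 923 probes). Below it, chromosome 19 (-0.13, 612 probes) was followed by chromosomes 11 (-0.09, 1419 probes), 15 (-0.08, 691 probes), 7 (-0.07, 1164 probes) and 10 (-0.06, 829 probes). The remaining 8 autosomes lay between -0.03 and 0.02. Neighbours in this order differ by a few hundredths of a log2 unit, and their order has no test. The X chromosome, measured for comparison on 528 kept probes, had an offset of -0.03.

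On chromosome 4 the shift was spread over many probes. Of its kept probes 62.8% lay above the autosomal median, and of its 732 genes, each by its brightest kept probe, 64.2%. The 25th, 50th and 75th percentiles were -0.13, 0.13 and 0.39, against -0.28, 0.00 and 0.26 over the 17 autosomes other than 4 and 19. On chromosome 19 the same percentiles were -0.42, -0.13 and 0.13, and 35.6% of probes and 33.9% of its 416 genes lay above the autosomal median. In the middle of both distributions the displacement was thus close to the offset itself. At the 95th percentile chromosome 4 (0.88), chromosome 19 (0.76) and the other autosomes (0.79) lay closer together than at the median. At the 5th percentile they lay further apart, at -0.71, -1.15 and -0.92.

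**Figure D2:**
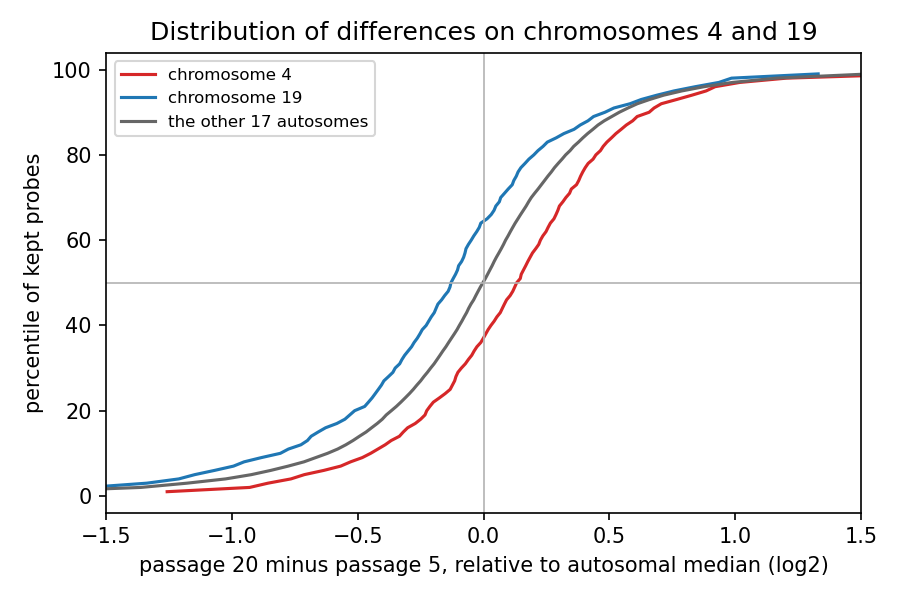
Percentile of kept probes (vertical axis) against the difference between passages in log2 relative to the autosomal median (horizontal axis), for chromosome 4 (red), chromosome 19 (blue) and the other 17 autosomes (grey). The red curve crosses the 50th percentile at 0.13 and the blue curve at -0.13, and the curves lie further apart at the 5th percentile (-0.71 and -1.15) than at the 95th (0.88 and 0.76).

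Probes with large differences were counted beside the offsets. Over all kept gene probes 3.71% were higher by 2-fold or more at passage 20 and 3.44% lower by as much, and among the autosomal ones 627 (3.75%) and 574 (3.44%). On chromosome 4, 50 probes (4.66%) were 2-fold higher and 17 (1.58%) lower, and on chromosome 3, 36 (4.23%) and 13 (1.53%). On chromosome 19, 20 probes (3.27%) were higher and 35 (5.72%) lower, on chromosome 11, 27 (1.90%) and 58 (4.09%), and on chromosome 7, 32 (2.75%) and 64 (5.50%). Chromosome 12 had the largest share of 2-fold higher probes, 42 of 647 (6.49%), although its offset was 0.02. On chromosomes 4, 3, 19, 11 and 7 the larger of the counts lay on the side of the offset. On chromosome 15, with an offset of -0.08, it lay on the other side, with 33 probes (4.78%) higher and 27 (3.91%) lower. The same held for chromosomes 1, 6 and 13, whose offsets were smaller. Offsets without the 2-fold probes were not computed.

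Probes detected on a single array were no part of the offsets and could be set beside them. On the autosomes 1355 probes were well above background at passage 20 alone and 1143 at passage 5 alone, so that 54.2% of these were seen at passage 20. The share was 67.1% on chromosome 14 (57 against 28 probes) and 59.3% on chromosome 4 (89 against 61). It was 40.2% on chromosome 19 (35 against 52), the lowest of all autosomes. Across the 19 autosomes this share and the offset had a Pearson's r of 0.76 and a Spearman's rho of 0.76. Both come from the same 2 arrays and the same genes' neighbourhoods, so this is a description.

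The array carries gene probes in 2 name series, A_51 and A_52, and many genes have 1 in each. Taken apart, the 8750 A_51 and 7959 A_52 probes gave offsets of the same sign on 18 of 19 autosomes. When only genes measured by 1 series alone were used (5227 and 3764 probes, with no gene in common), the sign was the same on 14 of 19, with r = 0.82 and rho = 0.80 over the 19 autosomes. Chromosome 4 had 0.17 and 0.14 in the separate gene sets, chromosome 9 0.07 and 0.11, chromosome 11 -0.08 and -0.12, and chromosome 19 -0.13 and -0.10. Chromosome 7 changed sign, with -0.08 and 0.01. The gene sets share the arrays and the RNA, so the likeness covers probes and genes, not cultures.

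**Figure D3:**
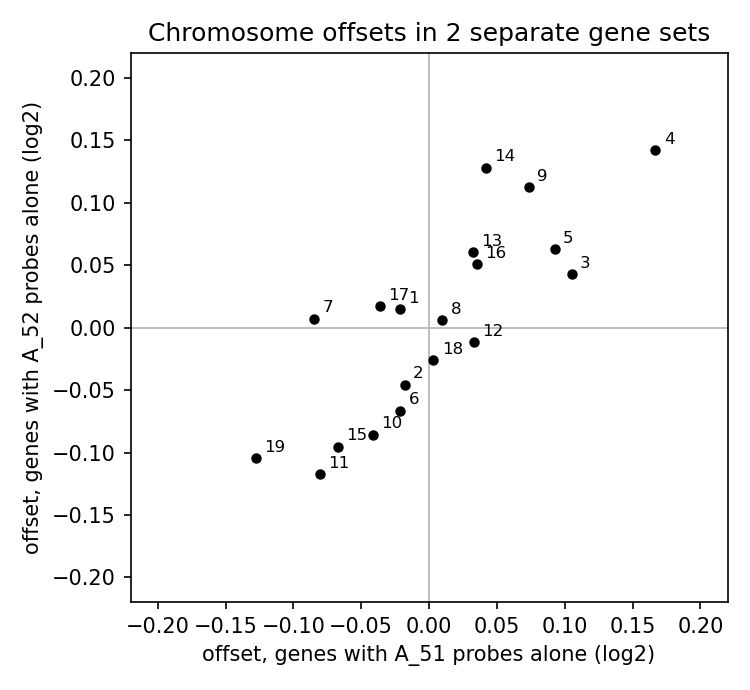
Offset of each autosome (numbered points, log2) from genes measured by A_51 probes alone (horizontal axis) against genes measured by A_52 probes alone (vertical axis). Chromosome 4 (0.17 and 0.14) lies at the upper right and chromosomes 19 (-0.13 and -0.10) and 11 (-0.08 and -0.12) at the lower left.

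With each chromosome's kept probes split at the middle probe in order of position, the proximal and the distal segment had offsets of the same sign on 17 of 19 autosomes. Chromosome 4 had 0.17 proximally and 0.11 distally, chromosome 9 0.09 and 0.11, and chromosome 14 0.07 and 0.14. Chromosome 5 had 0.11 and 0.01, so that its offset came mostly from its proximal segment, and chromosome 8 likewise had 0.08 and 0.00. Chromosome 19 had -0.19 and -0.08. When each 10-Mb bin was left out in turn, the offset of chromosome 4 stayed between 0.12 and 0.15. That of chromosome 19 ranged from -0.15 to -0.08, with the weakest value without its first bin. In 3 classes of signal level the sign was the same in all on 13 of 19 autosomes. Chromosome 4 had 0.14, 0.11 and 0.14 among dim, middle and bright probes, and chromosome 5 0.00, 0.08 and 0.11.

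Along the chromosomes, 249 bins of 10 Mb held at least 10 kept probes, and 142 of them lay above the autosomal median and 107 below. The SD of their offsets was 0.12, and 90% of them lay between the 5th percentile of -0.16 and the 95th of 0.21. No bin reached log2(3/2). On chromosome 4, 14 of 16 bins lay above 0, on chromosome 3, 14 of 16, on chromosome 5, 13 of 15, on chromosome 9, 12 of 13, and on chromosome 14, 11 of 12. On chromosome 11, 11 of 13 bins lay below 0, on chromosome 15, 9 of 11, and on chromosome 7, 11 of 15. The longest unbroken stretch above 0 was 0 to 110 Mb of chromosome 5 (11 bins, 574 probes, offset 0.10), and the next 30 to 130 Mb of chromosome 9 (10 bins, 844 probes, 0.11). Chromosome 4 had stretches at 0 to 50 Mb (5 bins, 0.18) and 80 to 160 Mb (8 bins, 0.12). Below 0, chromosome 15 had 9 bins from 20 to 110 Mb (-0.09) and chromosome 11 8 bins from 50 to 130 Mb (-0.10).

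**Figure D4:**
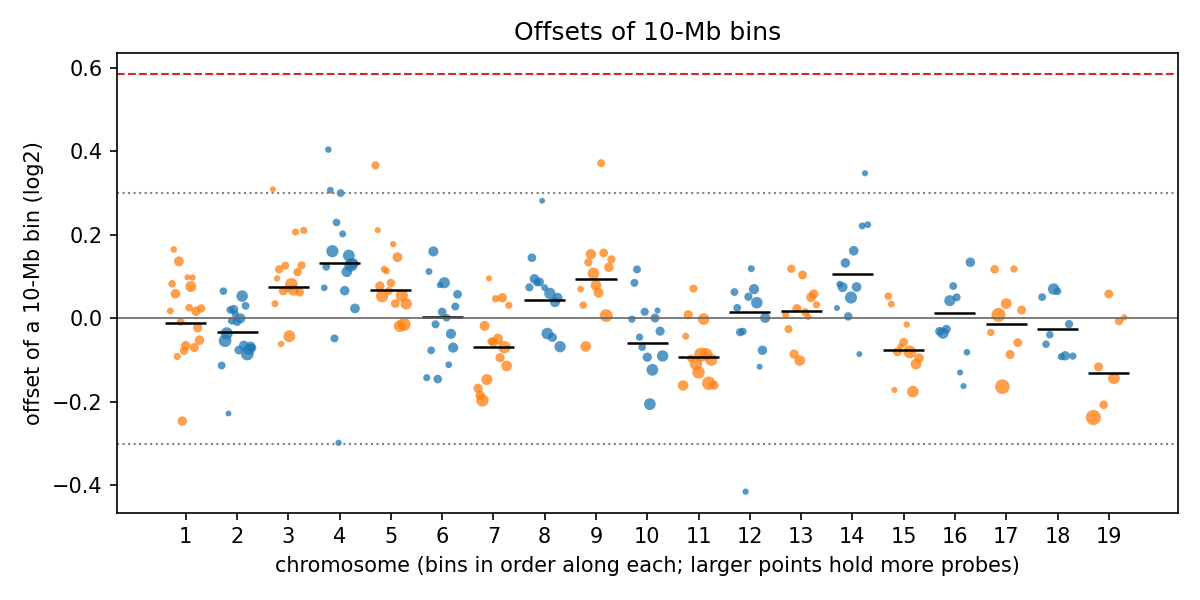
Offset in log2 of each 10-Mb bin with at least 10 kept probes (points, larger with more probes), in order along each autosome, with the chromosome offset as a black bar; dotted lines mark 0.3 in either direction and the dashed line log2(3/2). Bins past 0.3 number 7, most of them small points, and none reaches the dashed line.

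Of the 249 bins 7 lay past 0.3 log2, 6 above and 1 below, and they held 11 to 48 probes each. Those above were on chromosome 4 at 20 to 30 Mb (0.40) and 30 to 40 Mb (0.31), chromosome 9 at 80 to 90 Mb (0.37), chromosome 5 at 0 to 10 Mb (0.37), chromosome 14 at 110 to 120 Mb (0.35) and chromosome 3 at 0 to 10 Mb (0.31). The bin below was on chromosome 12 at 40 to 50 Mb (-0.42, 16 probes). The chromosome 14 bin rested on 14 probes of few genes, and by 1 probe per gene its offset was -0.07. With at least 20 probes required, 3 bins remained, on chromosomes 9, 5 and 4.

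In the chromosome 9 bin at 80 to 90 Mb, 36 of 43 probes and 22 of 25 genes lay above the autosomal median. Zfp949, a zinc finger gene, went from -2.34 at passage 5 to -1.22 at passage 20, a difference of 1.12. Ctsh, the gene of the lysosomal protease cathepsin H, went from 5.56 to 6.40 (0.84), and Myo6, an unconventional myosin of the endocytic pathway, from 3.65 to 4.35 (0.70, with its 3 probes from 0.13 to 0.70). Sh3bgrl2 went from 0.56 to 1.38 (0.82). The bin's genes differed from -1.19 to 1.12 with a median of 0.47, so that most lay within 2-fold and on the same side. Tent5a, at -1.19, and Syncrip, at -0.51, were exceptions chosen after their values were seen.

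In the first 10 Mb of chromosome 5, 39 of 48 probes and 24 of 29 genes lay above the autosomal median. Mterf1b, a gene of the mitochondrial transcription termination factor family that has a close copy, Mterf1a, went from -3.03 to -1.91 (1.13) and may share signal with that copy. Its passage 5 level was near the lowest of the kept autosomal probes there (-3.27), so the size of this difference is uncertain. Cfap69, a protein of cilia and flagella, went from 1.71 to 2.69 (0.98). Steap1, of a family of metalloreductases, went from 3.24 to 4.09 (0.85, with its other kept probe at 1.15), and Slc25a40, a mitochondrial carrier, from -1.07 to -0.40 (0.67). Cdk6, the cell cycle kinase that lies in the same bin, went from 3.39 to 4.03 (0.64, with its other kept probe at 0.84). The genes of this bin had a median difference of 0.47. Of these named genes only Mterf1b was past 2-fold by the probe used.

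Chromosome 4 had a pair of leading bins. At 30 to 40 Mb, 20 of 25 probes and 17 of 19 genes lay above the autosomal median. Mdn1, an ATPase of large ribosomal subunit assembly, went from 1.24 to 2.34 (1.10, with its other kept probe at 0.99), and Map3k7, the kinase TAK1 of inflammatory and TGF-beta signalling, from -0.56 to 0.22 (0.78). Slc35a1, the Golgi carrier of CMP-sialic acid, went from -0.06 to 0.55 (0.61), and Casp8ap2 went from 0.04 to 0.59 (0.55). At 80 to 90 Mb the offset was 0.30, just under the threshold, and 31 of 40 probes and 18 of 24 genes lay above. Cntln, a centrosomal protein, went from -2.32 to -1.46 (0.86), and Snapc3, a subunit of the complex that activates small nuclear RNA genes, from 0.80 to 1.45 (0.65). Rps6, a ribosomal protein, went from 4.93 to 5.69 (0.76), but its other kept probe differed by -0.43. Cdkn2b, the inhibitor of CDK4 and CDK6 known as p15, went from 3.44 to 4.27 (0.83), while its neighbour Cdkn2a stayed near its level, from 1.24 to 1.18 (-0.05).

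At the low end, the first 10 Mb of chromosome 19 had an offset of -0.24, with 66 of 236 probes and 45 of 167 genes above the autosomal median. This is a gene-dense region, and it held more kept probes than any of the other bins named. Aldh3b2, an aldehyde dehydrogenase of lipid aldehydes, went from 0.09 to -1.83 (-1.93). Fkbp2, a peptidyl-prolyl isomerase of the endoplasmic reticulum, went from 4.23 to 2.33 (-1.90, and -1.93 by its other probe). Rcor2, a corepressor that binds the demethylase LSD1, went from -0.10 to -1.83 (-1.73), and Efemp2, the matrix protein fibulin-4, from 3.67 to 2.38 (-1.29). The median over the bin's genes was -0.15, and the range -1.93 to 1.64.

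Chromosome 19 also held a low bin at 20 to 30 Mb, with an offset of -0.21 over 54 probes. Aldh1a1, the retinaldehyde dehydrogenase that makes retinoic acid, went from 0.69 to -0.49 (-1.18) there, and Ak3, a mitochondrial adenylate kinase, from 3.85 to 3.25 (-0.60). Kank1 went from 2.17 to 1.44 (-0.72), while its other kept probe differed by 0.12. On chromosome 10 at 70 to 80 Mb the offset was -0.21 over 130 probes. Misp, a protein of the mitotic spindle and actin cortex, went from 0.90 to -1.06 (-1.96), the glutathione transferases Gstt1 and Gstt2 from 1.74 to 0.18 (-1.56) and from -0.23 to -1.60 (-1.37), and the cold-inducible RNA-binding protein Cirbp from 2.28 to 0.98 (-1.30).

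The bin on chromosome 1 at 70 to 80 Mb had an offset of -0.25, with 21 of 73 probes above the autosomal median, but by 1 probe per gene over 49 genes it was -0.14. Igfbp2, which binds insulin-like growth factors, went from 3.19 to -1.05 there, a difference of -4.24 and the largest of the bin. Wdfy1 went from 2.24 to 0.14 (-2.09), with its 3 probes from -3.50 to 0.52. Abcb6, a porphyrin transporter, differed by -0.94 and Dnajb2, a heat shock protein co-chaperone, by -0.88. Of the 49 genes, each by its brightest kept probe, 15 lay above the autosomal median. The lean was thus spread over many genes, beside a few with large differences.

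Kept genes with the largest differences on the chromosomes at the ends of the order were much further out than any offset. On chromosome 4, Pdzk1ip1, a small membrane protein of epithelia, went from -0.72 to 1.45 (2.17) and the kinesin Kif12 from -1.94 to 0.17 (2.11). Ahdc1 differed by 2.10 and Arhgef10l by 1.68. On chromosome 14, Pibf1, a centrosomal protein, differed by 2.11, with its 3 probes from 1.08 to 2.11. Mmp14, a membrane-bound matrix metalloproteinase, went from -1.24 to 0.42 (1.66), Lrch1 differed by 1.51, and Spry2, an inhibitor of receptor tyrosine kinase signalling, by 1.28, with its other probe at 0.46. The passage 5 level of Lrch1 (-2.86) was near the lowest kept level there (-3.27), so the size of its difference is uncertain.

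On chromosome 19, Abcc2, the bile canalicular exporter MRP2, went from 1.74 to -1.92 (-3.65). Cyp2c66, a cytochrome P450, differed by -2.87, Ms4a10 by -2.59 and the G protein subunit gene Gna14 by -2.01. At passage 20 Cyp2c66 (-2.94) and Gna14 (-3.03) were near the lowest kept level there (-3.17), so the sizes of these differences are uncertain. The same chromosome held Ankrd1, a target of YAP signalling, which went the other way from 2.71 to 5.05 (2.34). On chromosome 11, Tmem88, an inhibitor of Wnt signalling, went from 1.90 to -2.56 (-4.47) and the membrane protein Pmp22 from 1.79 to -1.97 (-3.76). Tmigd1, an adhesion protein of epithelia, differed by -3.23 and the intestinal keratin Krt20, at 4.37 and 1.74, by -2.63.

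Every autosome had genes at least 2-fold apart in both directions. The highest gene of a chromosome ranged from 1.39 for Zfp160 on chromosome 17 to 3.68 for Dglucy on chromosome 12, and the lowest from -2.14 for Nars on chromosome 18 to -6.78 for Reg3b on chromosome 6. Among the highest were Ccn1 on chromosome 3 (2.79) and Ccn2 on chromosome 10 (2.43), matricellular proteins that are YAP targets like Ankrd1. Cxcl1, a neutrophil chemokine, led chromosome 5 (3.23), and the immediate early gene Egr1 chromosome 18 (2.06). Among the lowest were the secreted protease inhibitor gene Wfdc2 on chromosome 2 (-6.12), the sodium/proton exchanger Slc9a2 on chromosome 1 (-4.77) and the water channel Aqp5 on chromosome 15 (-4.06). Chromosomes 3 and 10 had offsets of opposite sign, and both had a gene above 2.4.

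Genes known from gains and losses in mouse tumours and cultured cells were 2-fold apart about as often as kept genes in general. Of 33 such landmark genes, 30 were measured on both arrays, and Hgf, Pvt1 and Fgf15 were not. Their median difference was 0.06, against 0.09 over all kept autosomal genes by their brightest probe. By that measure 3.20% of all kept genes were 2-fold higher and 3.78% 2-fold lower. Among the landmarks 1 was higher and 1 lower. Myc, the growth-promoting transcription factor on chromosome 15, went from 0.75 to 2.55 (1.80, with its 3 probes from 1.44 to 1.80), while its 10-Mb bin had an offset of -0.01. Axin1, a scaffold of beta-catenin degradation on chromosome 17, went from -0.08 to -1.53 (-1.44), while its bin had 0.01.

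Oncogenes other than Myc included Met, the hepatocyte growth factor receptor, at 2.24 and 2.91 (0.68), Egfr at 1.63 and 1.35 (-0.28) and the cyclin D1 gene Ccnd1 at 6.32 and 6.07 (-0.25). On chromosome 9, Yap1 and Birc2, which are gained together in some mouse liver tumours, differed by -0.56 and 0.20. Tumour suppressors included Trp53 at 1.91 and 1.63 (-0.27), Rb1 at 0.96 and 1.17 (0.21) and Nf2 at -0.13 and -0.64 (-0.51). Mdm4, an inhibitor of p53, differed by 0.77, its relative Mdm2 by -0.20, and Stk11 by 0.09 in a bin with an offset of -0.21.

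Base composition moved with the offsets. Kept probes with 35 to 40% G+C had a median of 0.05 around the autosomal median and those with 50 to 55% one of -0.11. The share of probes at least 2-fold lower rose from 1.81% to 5.87% between these classes, and the share at least 2-fold higher fell from 4.28% to 2.93%. Spearman's rho between G+C and the difference was -0.14 over probes, -0.32 over bins and -0.41 over the 19 autosomes. Probes on the same array share its hybridisation and its scaling. With the trend on G+C subtracted, an alternative chosen after seeing the data, the range of chromosome offsets was 0.26, close to the range without it. Chromosomes with higher median signal had lower offsets (rho -0.46), and so had bins with more kept probes (rho -0.20). With the trend on probe density subtracted, also chosen after seeing the data, the range was 0.21.

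**Figure D5:**
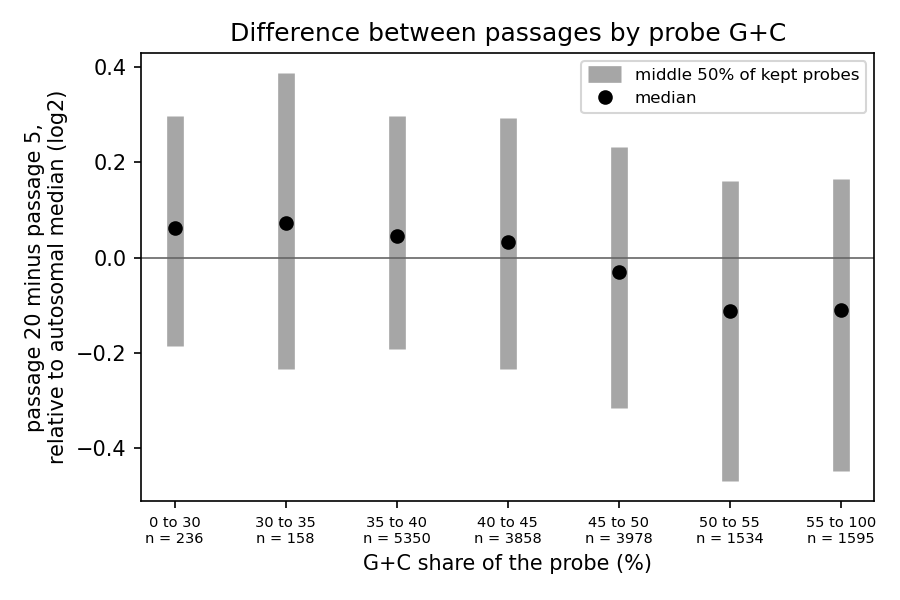
Difference between passages in log2 relative to the autosomal median (vertical axis) by the G+C share of the probe (horizontal axis, with the number of kept probes), as median (point) and middle 50% (bar). The median falls from 0.05 at 35 to 40% to -0.11 at 50 to 55%.

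Neighbouring genes were only weakly alike. For pairs of adjacent genes under 100 kb apart the Pearson correlation of their differences was 0.10 over 7066 pairs. It was 0.01 over 3540 pairs at 100 kb to 1 Mb and 0.02 over 521 pairs further apart. These pairs share arrays and overlap in genes, and a few close pairs may share transcripts.

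The labelled cell type was checked against its markers. Of 16 hepatoblast markers 13 were kept, among them Afp (2.55 at passage 5 and 2.64 at passage 20), Hnf4a (2.24 and 2.03) and Krt18 (8.62 and 8.79). Of the 13, 4 differed by 2-fold or more: Spp1 (4.53 and 7.30), Cdh1 (2.49 and 4.02) and Prox1 (-3.11 and -2.09) were higher at passage 20, and Epcam (-1.33 and -2.50) was lower. Prox1 rested on 1 of 3 probes and was near the lowest kept level at passage 5 (-3.27). The markers Dlk1, Foxa1 and Foxa3 were well above background on neither array. None of the 4 markers taken for mature hepatocytes (Alb, Ttr, Cyp3a11 and Cyp7a1) was above background on either array. Nor was any of 4 endothelial and 4 erythroid markers, and of 6 stellate and fibroblast markers Dcn alone was, at passage 5. Of 4 leukocyte markers Cd68 was kept (-1.17 and -0.84) and Csf1r was above background at passage 5 only. The arrays also differed in sex-linked transcripts. Xist, the RNA of the inactive X chromosome, went from -0.13 to 5.06 (5.19). The Y-linked genes Ddx3y (by 1 of 2 probes), Eif2s3y and Kdm5d were above background at passage 5 only. Uty, also Y-linked, was above background on neither array. Of the genes that escape X inactivation, Kdm5c differed by 0.65, Kdm6a by 0.52 and Ddx3x by -0.08. Eif2s3x differed by 0.55, with its 3 kept probes from -0.83 to 1.42. Whether this difference between the cultures has a part in the autosomal offsets was not tested.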

How the data were processed

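Total RNA of 1 culture at passage 5 and 1 at passage 20 was amplified, labelled with Cy3 and put on Agilent 1-colour arrays, per the labels' protocols. Per the file headers, Agilent Feature Extraction 10.7.3.1 gave the deposited spot intensity, with background subtraction and detrending. The deposited mean and local background intensity served the normexp alternative. A value table from the authors holds log2 values; its columns matched the scanner values (r = 0.99987 and 0.99986), had the same sorted values (largest gap 0.000609) and a median of 6.31 each, so it was read as log2 after quantile normalization. The tool behind it is not stated in the sources used here. Genes in it are not centred, and no ratio direction applies.

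Control spots and outlier-flagged spots (73 and 69) were left out. Log2 signals were averaged over a probe's spots, and the 75th percentile of gene probes on that array (signals of 1085 and 853) was subtracted. No spot was saturated, and 18733 probes (45.5%) at passage 5 and 18968 (46.1%) at passage 20 were well above background. The headers place both arrays on 1 slide and in 1 scan. Of the kept autosomal probes, 14570 were named by accession through RefSeq (GRCm38.p6), 1268 by symbol, 95 by an older symbol and 776 by the array's own name; 867 probes on random or unplaced sequence were left out.

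With 1 array per passage no test was made. Genes named are the 4 with the largest difference in the direction of the offset on the 2 highest and 2 lowest chromosomes and in the 4 highest and 4 lowest bins with at least 20 kept probes, the highest and lowest of each autosome, 33 landmark genes, and X-linked and Y-linked genes for comparison, each by its brightest kept probe; provisional names were skipped, and a few listed genes are not reported here. The members and lists were chosen with earlier results of these data known. Alternatives were quantile normalization, loess, normexp (offset 50), the authors' values, other filters on dim probes, 1 probe per gene, RefSeq mRNA probes, flagged spots kept, the mean of the middle 80%, other bins and other thresholds; base composition, probe density and probe series were added after seeing the data. Python 3.11.15, R 4.3.3 and limma 3.58.1 were used. The chromosome step alone was run on these probe differences in random order with known shifts added. The tolerance of that check was close in size to the largest offsets, so it does not measure their precision.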

Additional observations from a re-analysis of the deposited data

How the results depend on the processing

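The range of chromosome offsets, 0.26 log2, lay between 0.22 and 0.29 under the other scalings, filters and probe sets, except without any filter on dim probes (0.025) and with the trend on probe density subtracted (0.214). Without a filter, 19615 of the 22113 added probes were well above background on neither array. Leaving out each 10-Mb bin in turn gave 0.224 (without the first bin of chromosome 19) to 0.283. The count of chromosomes past 0.2 was 0 under all alternatives that gave it, and 3 at a threshold of 0.1. The 7 bins past 0.3 became 4 with normexp, 11 with probes above background on at least 1 array, 0 without a filter, 15 with 5-Mb bins, 2 with 20-Mb bins and 3 with at least 20 kept probes. The 627 probes at least 2-fold higher became 342 with normexp, 1613 with at least 1 array above background, 4025 without a filter, 117 among brighter probes, 364 with 1 probe per gene, 371 with RefSeq mRNA probes, 1960 at 1.5-fold and 72 at 4-fold. The 574 lower became 361, 1305, 1948 and 191 under the first 4 of these, and 1478 at 1.5-fold and 101 at 4-fold. The split moved with the scaling, to 468 higher and 714 lower with loess, 491 and 665 with quantile normalization and 500 and 659 with the authors' values. Chromosomes 2, 3, 4, 5, 8, 9, 10, 11, 14, 15 and 19 kept their sign in 17 settings. Chromosome 7 turned to 0.00719 with genes measured by A_52 probes alone. For the 67 named genes past 2-fold, 0 of 334 values in other settings changed sign. For the 49 within 2-fold, 3 of 241 did, all of 1 gene, Braf, at 0.02. Most named genes were chosen for large differences on these arrays, and the settings reuse the same spots. These counts are therefore no independent check. No paired analysis was possible because each passage had 1 array. Offsets rest on probes with signal over background and say nothing of the 22113 autosomal probes left out.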
